A study of Mus musculus with 72 samples.

Results

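The TGF-β ligands Tgfb1, Tgfb2 and Tgfb3, the activin subunit gene Inhba, the latency protein gene Ltbp1 and the receptor genes Tgfbr1, Tgfbr2 and Eng were followed across 4 treatment groups of mouse tumours. These 8 genes, of 1224 on the panels, were chosen by name, with earlier results of these data known. They gave 11 of the 1278 gene rows in the count table, because Tgfb1, Tgfb2 and Tgfb3 were read on both of 2 amplicon panels. The tumour model was 4T1, a BALB/c mammary carcinoma cell line, injected into the thigh muscle of female BALB/c mice aged 6 to 12 weeks on day -6. Treatment was given on day 0 and the tumours were collected on day 6, from 9 mice per group. Control mice received 400 µg of isotype antibody. BA mice received 492 µg of bintrafusp alfa (BA), also named M7824 in the labels, a fusion of an anti-PD-L1 antibody with the ectodomain of TGF-β receptor II. RT mice received radiation and isotype antibody, and BA+RT mice received both BA and radiation. The radiation dose was not given in the sources used here, and 4T1 in the thigh is a transplanted tumour outside the mammary gland, although the labels name it orthotopic.

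TGF-β is secreted as a latent dimer in which the propeptide encloses the mature ligand. LTBP1 binds the propeptide through disulfide bonds and anchors the complex in the extracellular matrix, from which integrins and proteases release the active ligand. Active ligand binds TGFBR2, which recruits and phosphorylates the type I receptor TGFBR1, and TGFBR1 then phosphorylates SMAD2 and SMAD3. Endoglin, the product of Eng, is a coreceptor found chiefly on endothelial cells. Inhba encodes the βA subunit of activin A, which uses activin receptors and the same SMADs. TGFBR2 binds TGF-β1 and TGF-β3 tightly and TGF-β2 weakly. The amplicons read messenger RNA of tumour and host cells, so they did not measure the injected protein or the amount of active ligand.

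Each gene was read from a single short amplicon within 1 exon, on the GRCm38 assembly. The coding amplicons are printed because they show which stretch of the transcript each count stands for, and because those of Tgfb2 and Inhba lie in the same part of 2 related ligands. The Tgfb2 amplicon (chr1:186625500-186625594, minus strand) lies in coding exon 7 of 7, and the Inhba amplicon (chr13:16026998-16027092, plus strand) in coding exon 5 of 5. Both hold the run of 9 bases shown in capitals, which begins in frame with the adjacent cysteine codons TGC and TGT of the mature ligand. The Ltbp1 amplicon (chr17:75362528-75362621, plus strand) lies in coding exon 25 of 30, and the Tgfbr1 amplicon (chr4:47406939-47407033, plus strand) in coding exon 8 of 9.
Tgfb2: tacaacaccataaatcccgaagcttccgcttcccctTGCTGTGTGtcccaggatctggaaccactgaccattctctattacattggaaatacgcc
Inhba: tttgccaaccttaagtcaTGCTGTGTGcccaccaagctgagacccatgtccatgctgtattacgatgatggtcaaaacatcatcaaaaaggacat
Ltbp1: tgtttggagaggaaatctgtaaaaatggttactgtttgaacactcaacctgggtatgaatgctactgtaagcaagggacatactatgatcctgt
Tgfbr1: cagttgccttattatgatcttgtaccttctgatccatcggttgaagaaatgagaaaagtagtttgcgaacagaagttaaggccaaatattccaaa
The other amplicons lay in untranslated regions. Those of Tgfb1 (chr7:25687598-25687691) and Tgfb3 (chr12:86078576-86078672) were in the 5' untranslated part, in exon 1 of 7. That of Eng (chr2:32681711-32681809) was in the 3' untranslated part, in exon 15 of 15, and that of Tgfbr2 (chr9:116089970-116090064) likewise in exon 7 of 7. The Ltbp1 amplicon was contained in 4 of 6 annotated protein-coding transcripts and the Eng amplicon in 3 of 4, so other isoforms of these genes were not read.

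Libraries held 959532 to 2616197 counts on panel 1 and 314621 to 841046 on panel 2, with higher medians in both irradiated groups (1902836 and 1898032 against 1567411 and 1362126 on panel 1). The 11 rows had 108 to 10636 counts per library, and all passed the filter on low counts. Levels are given as CPM, counts scaled to library size with TMM factors within a panel. Amplicons differ in amplification efficiency, so member levels were compared between groups for 1 row and never between genes. Marker sums, in contrast, add CPM of different amplicons, and for fibroblast and muscle markers of both panels. Rows with the most counts dominate such sums. Epcam, for example, had 7356 to 23435 counts per library and Muc1 14 to 594. Control tumours held 10143 to 15271 CPM of the carcinoma and epithelial markers Epcam, Muc1 and Msln summed, the 3 of 8 listed markers on the panels. The sum was 8337 to 11174 CPM in BA, 6642 to 10295 CPM in RT and 5386 to 10037 CPM in BA+RT tumours. On the log2 scale Epcam was lower than in control in each treated group (-0.30, -0.81 and -0.75 in the same order), while Muc1 was lower with BA (adjusted p = 0.00115) and higher after RT or both treatments (2.32 and 1.86). Msln likewise was lower with BA (-0.48) and higher with RT and BA+RT (0.55 and 0.93), and the part of these markers in the members' values was not tested. In bulk tumour RNA, fewer cells of a type and less RNA per cell cannot be told apart.

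Of the 66 pairwise results (11 rows in 6 comparisons), 33 were called at an edgeR adjusted p under 0.05. BA against control called 6 member rows, 3 higher and 3 lower, where 27.3% of all 1089 tested rows were called. RT against control called 3, of which 2 were higher, beside 41.9% of all rows. BA+RT against control called 7, of which 2 were higher, beside 48.1%. BA+RT against RT called 5, all lower, beside 11.2%. BA+RT against BA called 6, of which 2 were higher, beside 53.4%, and RT against BA called 6, of which 3 were higher, beside 53.8%. The share of the 11 rows called was above that of all rows in BA against control, BA+RT against control and BA+RT against RT, close to it in both comparisons with BA as the reference, and below it in RT against control. With 11 rows of 8 chosen genes no test of these shares was made. Both panel rows of a ligand come from the same RNA and are not separate evidence. The interaction of BA and RT called 0 member rows beside 8.26% of all rows in edgeR. Unadjusted p was under 0.05 for 2 of them, Tgfb2 and Tgfbr1 on panel 2, and DESeq2 called 0.

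**Figure D1:**
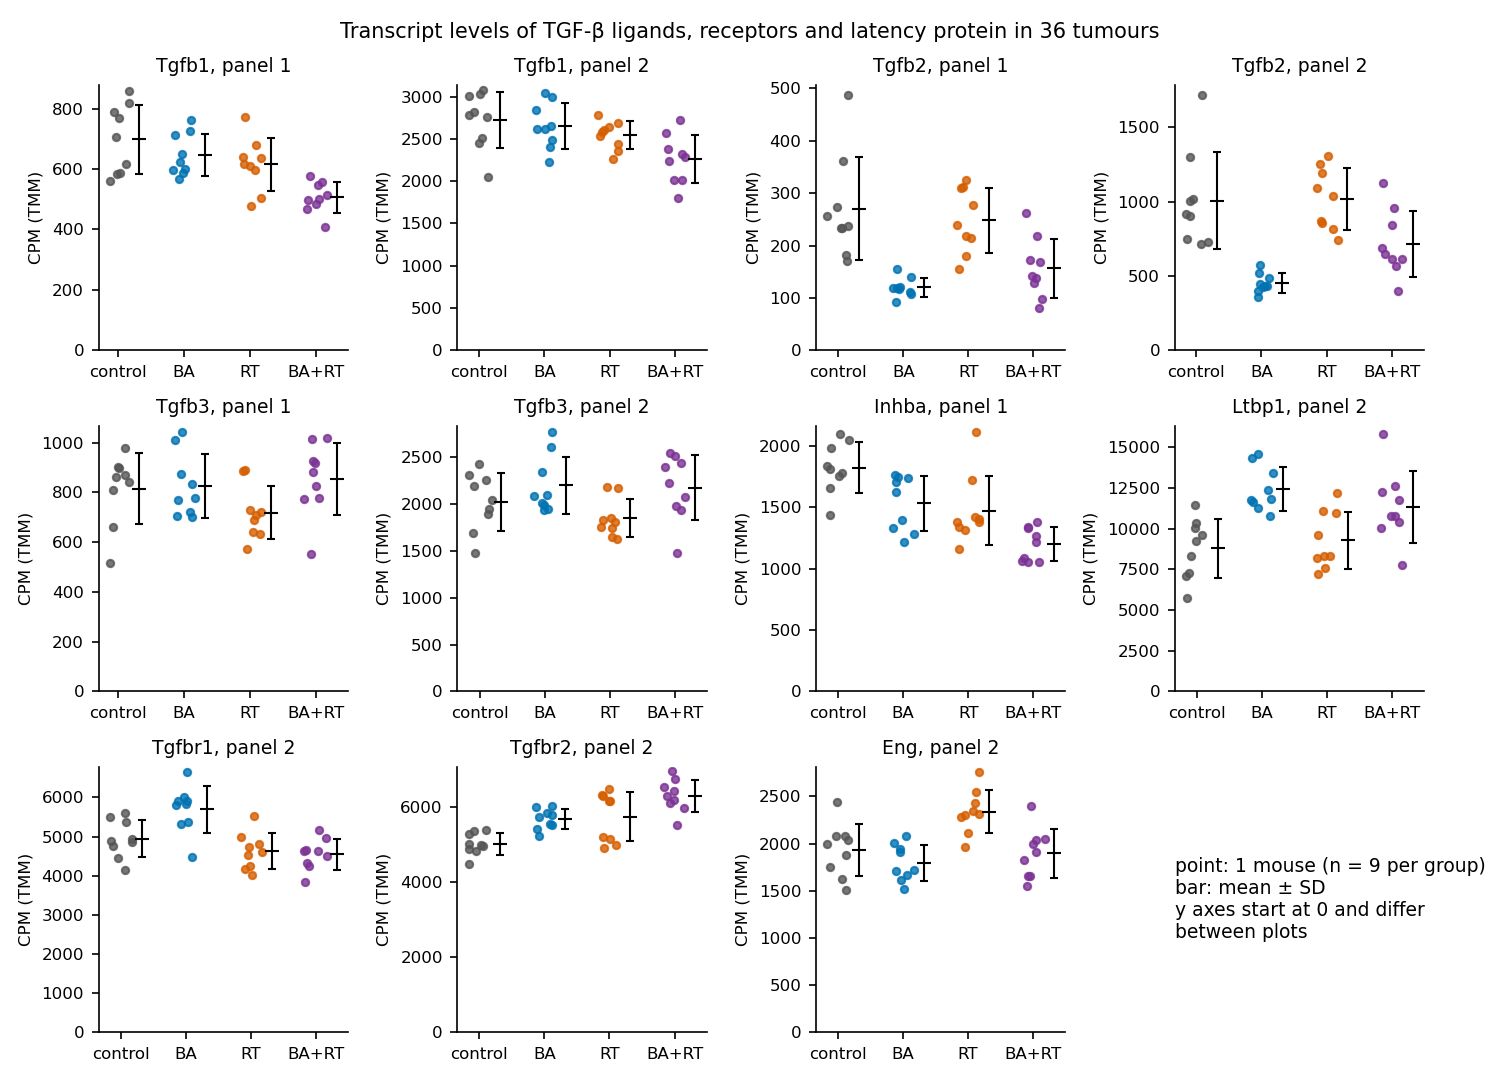
CPM (TMM scaled, linear axes from 0) of the 11 rows in each mouse, by group; points are mice, and bars give mean ± SD (n = 9). Tgfb2 in BA tumours lies below every control and every RT tumour on both panels, and Inhba in BA+RT tumours lies below every control tumour.

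Tgfb2 fell with BA, and no other of the 8 genes changed as much in any comparison with control. On panel 2 its level was 714 to 1719.9 CPM in control tumours (median 919.6) and 356 to 575 CPM in BA tumours (median 434). RT tumours ranged from 739 to 1309 CPM (median 1039) and BA+RT tumours from 397 to 1123 CPM (median 648). Every BA tumour was below every control and every RT tumour, and BA+RT tumours overlapped all other groups. Mean levels were 453 ± 65.8 CPM with BA and 1007 ± 325 CPM in control (SD, n = 9), a 2.22-fold lower level (log2 fold change -1.15, SE 0.17, edgeR adjusted p = 4.36e-06). Panel 1 gave a 2.25-fold lower level (log2 fold change -1.17, SE 0.19, adjusted p = 2.9e-05), again with groups that did not overlap.

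RT alone did not change Tgfb2 detectably, with log2 fold changes from control of -0.12 on panel 1 and 0.02 on panel 2 (95% intervals -0.49 to 0.24 and -0.29 to 0.34). With both treatments Tgfb2 was lower than in control, by 0.79 on the log2 scale on panel 1 (SE 0.19, adjusted p = 0.00092) and by 0.48 on panel 2 (SE 0.16, adjusted p = 0.0129; 0.0501 when only these groups were fitted). It was also lower than after RT alone, by 0.66 (SE 0.19, adjusted p = 0.0196) and 0.51 (SE 0.16, adjusted p = 0.034; 0.0544 when only these groups were fitted and 0.0668 with libraries thinned to the smallest). Against BA alone it was higher on panel 2 (log2 fold change 0.66, SE 0.17, adjusted p = 0.00115) and not called on panel 1 (0.38, SE 0.19, adjusted p = 0.0936). The ordering on panel 2 was therefore BA, BA+RT, then control and RT, which were not separated. The interaction, which asks whether the fall with BA differed in irradiated tumours, was 0.50 (SE 0.27, adjusted p = 0.271) on panel 1 and 0.64 (SE 0.23, adjusted p = 0.079) on panel 2, so a difference in the fall was not established. Without BA+RT mouse 37, which had the lowest Tgfb2 of its group, it was called on panel 2 (adjusted p = 0.0346), and without mouse 37 or 40 BA+RT exceeded BA on panel 1 as well. On panel 2 the fall below RT was lost without any 1 of RT mice 19, 20, 23 and 24 or BA+RT mice 37, 39, 40, 41, 42 and 44 (highest adjusted p = 0.0769), and on both panels without control mouse 8, RT mouse 24 and BA+RT mouse 40 together (adjusted p = 0.0668 and 0.133). Without those 3 mice the interaction was called on panel 2 (0.78, adjusted p = 0.0252), and BA+RT exceeded BA on panel 1 (0.44, adjusted p = 0.0442).

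Tgfb1, the most widely expressed of the 3 isoforms in adult tissues, was lower in BA+RT tumours than in control and BA tumours on both panels. On panel 1 BA+RT tumours ranged from 408 to 577 CPM (median 501) and control tumours from 562 to 857 CPM (median 706). BA tumours had a median of 623 CPM and RT tumours of 617 CPM. BA+RT tumours all lay below the control mean, with ranges that met at their ends. The level was 1.38-fold lower than in control (log2 fold change -0.46, SE 0.09, adjusted p = 5.6e-05), and on panel 2 1.20-fold lower, at 2261 ± 286 CPM against 2719.5 ± 332 CPM (-0.27, SE 0.07, adjusted p = 0.00288). BA+RT was also lower than BA (-0.35 and -0.23, adjusted p = 0.00115 and 0.00814) and, on panel 1, lower than RT (-0.28, SE 0.09, adjusted p = 0.0337), while on panel 2 this difference was not called (-0.17, SE 0.07, adjusted p = 0.131). Neither treatment alone gave a call, with log2 fold changes from -0.18 to -0.04. The fall below RT on panel 1 was lost without any 1 of RT mice 19, 21, 22, 23 and 24 or BA+RT mice 40, 41, 42 and 45 (highest adjusted p = 0.0787) and without control mouse 8, RT mouse 24 and BA+RT mouse 40 together (0.0838), while that on panel 2 was called without control mouse 6 (adjusted p = 0.0497). For RT against control on panel 1 (adjusted p = 0.0933), leaving out 1 of 9 mice gave a call (control 3, 6 or 7, RT 21 or 22, BA+RT 37, 41, 43 or 45; lowest adjusted p = 0.0229). The same difference was called with the size factors of DESeq2 in edgeR (-0.21, adjusted p = 0.0459) and with the DESeq2 test (-0.21, adjusted p = 0.0409), and it turned to 0.023 with reference gene factors (adjusted p = 0.818).

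Tgfb3 differed least among the ligands. Its group medians on panel 1 lay between 709 CPM (RT) and 881 CPM (BA+RT), and on panel 2 between 1809.9 CPM (RT) and 2224 CPM (BA+RT). All 4 groups overlapped on both panels. Of its 12 pairwise results 1 was called, RT below BA on panel 2 (log2 fold change -0.25, SE 0.09, adjusted p = 0.0246), and it was not called on panel 1 (-0.20, SE 0.11, adjusted p = 0.127). With factors from reference genes the called difference turned to 0.015 (adjusted p = 0.877), and BA+RT was instead called higher than control and BA on panel 1 (0.24 each, adjusted p = 0.033 and 0.0292) and not on panel 2 (0.15 and 0.14). The call for RT against BA was also lost without BA mouse 11 or RT mouse 23 (highest adjusted p = 0.0563). Control mouse 6 and BA+RT mouse 45 had the lowest Tgfb3 of their groups on both panels. Without mouse 45 BA+RT exceeded RT on both panels (adjusted p = 0.0292 and 0.0209), without mouse 6 RT was below control on panel 1 (adjusted p = 0.0477), and without RT mouse 25 RT was below BA on panel 1 (adjusted p = 0.0462).

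Inhba was lower in each treated group than in control, and lowest with both treatments. Control tumours ranged from 1433 to 2096 CPM (median 1811), BA tumours from 1217 to 1763 CPM (median 1625) and RT tumours from 1162 to 2111 CPM (median 1380.1). BA+RT tumours ranged from 1051 to 1381 CPM (median 1219), and all lay below the lowest control tumour. The fall was 0.60 on the log2 scale with BA+RT (1.52-fold, SE 0.09, adjusted p = 3.47e-06), 0.31 with RT (SE 0.09, adjusted p = 0.00825) and 0.25 with BA (SE 0.09, adjusted p = 0.0465). BA+RT was lower than RT by 0.29 (adjusted p = 0.0362) and lower than BA by 0.35 (adjusted p = 0.00206). The interaction was -0.05 (SE 0.13, adjusted p = 0.883), so the change with BA did not differ detectably between irradiated and other tumours. The call for BA was lost without any 1 of 11 mice (control 1, 2, 4, 6 or 9, BA 13, 15, 16, 17 or 18, or RT 20; highest adjusted p = 0.107). The fall below RT was lost without RT mouse 21 or 22 or BA+RT mouse 40, 41, 42, 44 or 45 (highest adjusted p = 0.0985). It was also lost when only these groups were fitted (adjusted p = 0.0518), with limma on the rlog values (0.0523) and without control mouse 8, RT mouse 24 and BA+RT mouse 40 together (0.0776). The fall with RT was lost under reference gene scaling (-0.12, adjusted p = 0.261).

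**Figure D2:**
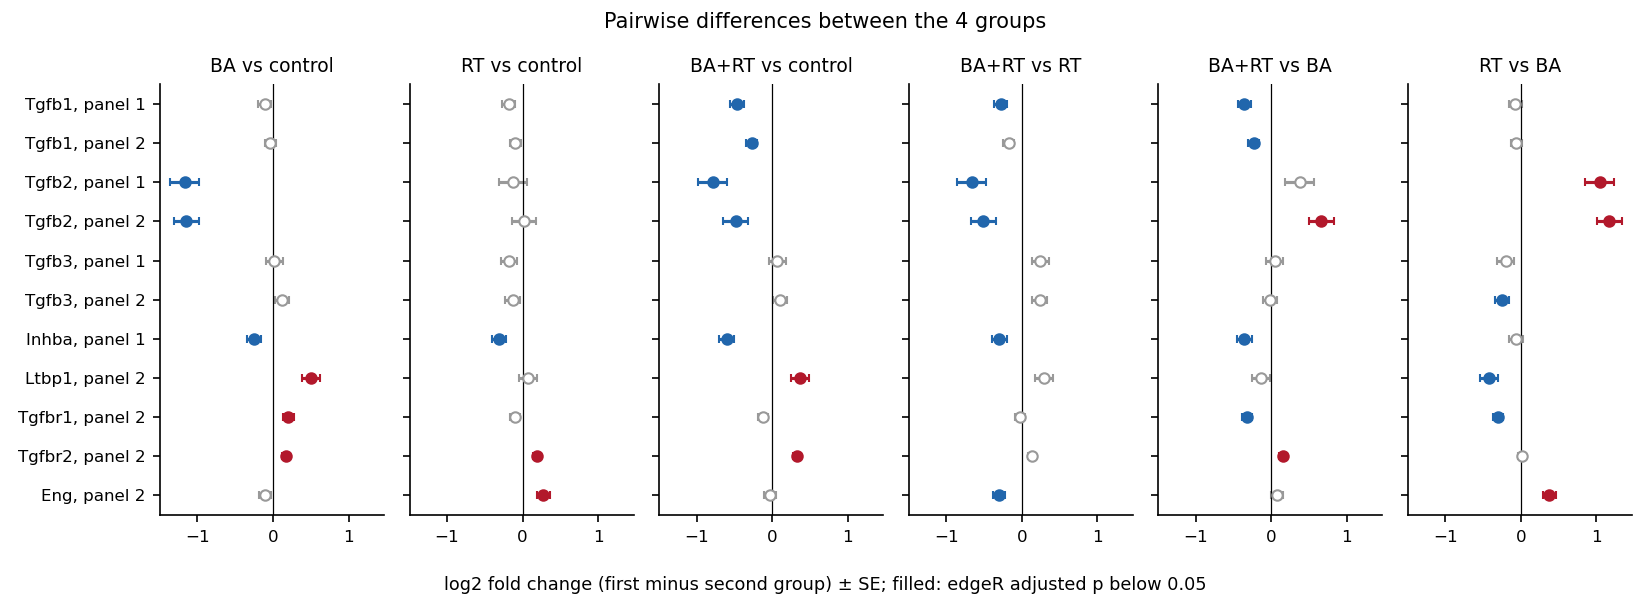
log2 fold change ± SE of each row in the 6 pairwise comparisons; red marks higher and blue lower calls, and open points were not called. Tgfb2 has the largest changes, -1.17 and -1.15 for BA against control and 1.04 and 1.17 for RT against BA.

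The latency gene Ltbp1 moved in the direction opposite to Tgfb2 in BA-treated tumours. BA tumours ranged from 10755 to 14599 CPM (median 11808) and control tumours from 5751 to 11451 CPM (median 9239). RT tumours ranged from 7219 to 12211 CPM (median 8342) and BA+RT tumours from 7741 to 15829 CPM (median 10764). All 9 BA tumours exceeded the control mean, although the ranges overlapped at 10755 to 11451 CPM. Ltbp1 was 1.41-fold higher with BA (log2 fold change 0.50, SE 0.12, adjusted p = 0.00171) and 1.29-fold higher with BA+RT (0.37, SE 0.12, adjusted p = 0.0105) than in control. RT alone gave 0.08 (SE 0.12, adjusted p = 0.64), and BA+RT against RT gave 0.29 (SE 0.12, adjusted p = 0.107). Without RT mouse 25 or BA+RT mouse 45 the latter was called (lowest adjusted p = 0.0359).

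Of the signalling receptors, Tgfbr2 was higher than in control in each treated group. Control tumours ranged from 4474 to 5394 CPM (median 4995), BA tumours from 5230.1 to 6022 CPM (median 5729) and RT tumours from 4912 to 6479.6 CPM (median 6159). BA+RT tumours ranged from 5516 to 6955 CPM (median 6286), above every control tumour. The rises were 0.18 with BA (SE 0.05, adjusted p = 0.0139), 0.19 with RT (SE 0.05, adjusted p = 0.00426) and 0.33 with BA+RT (SE 0.05, adjusted p = 7.07e-06). These are small changes, of 1.13-fold, 1.14-fold and 1.25-fold, in the row with the least spread among control mice (coefficient of variation 5.84%). BA+RT was higher than BA (0.15, SE 0.05, adjusted p = 0.0189) and not called against RT (0.14, SE 0.05, adjusted p = 0.0977). The latter was called when scaled by total counts (0.16, adjusted p = 0.041) and was 0.020 with reference gene factors (adjusted p = 0.899). The rise over BA was not called without BA mouse 12 (adjusted p = 0.0502).

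The type I receptor gene Tgfbr1 was highest in BA tumours, at 4486 to 6648 CPM (median 5828). Medians were 4894 CPM in control, 4613 CPM in RT and 4643 CPM in BA+RT tumours, and the ranges of all groups overlapped. The rise with BA was 0.20 (SE 0.07, adjusted p = 0.0222), and it was lost without control mouse 7 (adjusted p = 0.0541). RT and BA+RT were lower than BA, by 0.30 and 0.32 (SE 0.07, adjusted p = 0.000275 and 0.000143), and neither was called against control (-0.10 and -0.12).

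The coreceptor gene Eng was highest after RT alone. RT tumours ranged from 1966 to 2755 CPM (median 2315), control tumours from 1512 to 2445 CPM (median 1995), BA tumours from 1519 to 2076 CPM (median 1725) and BA+RT tumours from 1554 to 2398 CPM (median 1916). All 9 RT tumours exceeded the control mean, and the ranges overlapped. RT was higher than control by 0.27 (SE 0.08, adjusted p = 0.00679) and than BA by 0.38 (SE 0.08, adjusted p = 0.000194). BA+RT was lower than RT by 0.30 (SE 0.08, adjusted p = 0.0137) and close to control (-0.03, 95% interval -0.19 to 0.14). Of 13 listed endothelial markers 3 were on the panels, Kdr, Cd34 and Sele, with 0 of 36 libraries at 0 for each. Sele was near the floor, with 4 to 42 counts per library, against 122 to 477 for Kdr and 418 to 1290 for Cd34. The summed level of the 3 markers was 641 to 1042 CPM in control and 459 to 757 CPM in BA tumours. It was 526 to 734 CPM in RT and 351 to 707 CPM in BA+RT tumours. In BA+RT against RT, where Eng fell, Kdr fell by 0.47 (adjusted p = 0.00851) and Cd34 by 0.45 (adjusted p = 0.0126), and Sele was not called (0.52, adjusted p = 0.207). In RT against BA, where Eng was higher, none of the 3 was called. Against control, Cd34 fell by 0.41 and Kdr by 0.39 with BA (adjusted p = 0.00957 and 0.0146). With RT, Cd34 fell by 0.50 (adjusted p = 0.000968) and Kdr and Sele were not called, and with BA+RT, Cd34 fell by 0.95 and Kdr by 0.70, while Sele rose by 0.84. Their part in the Eng values was not tested.

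The 3 ligands on both panels gave a direct check of measurement error, since the same amplicon was read in separate libraries from the same mouse. Deviations from the group mean correlated between panels with Pearson r = 0.954 for Tgfb3 (Spearman rho 0.951), 0.931 for Tgfb2 (0.878) and 0.663 for Tgfb1 (0.678) over 36 mice. Without the 2 mice farthest from the median on panel 1, r was 0.931, 0.901 and 0.658. Within groups the SD of the log2 difference between panels was 0.11 to 0.19 for Tgfb1, 0.15 to 0.16 for Tgfb2 and 0.06 to 0.10 for Tgfb3. The panels thus disagreed about as much for Tgfb1 as for Tgfb2. Tgfb1 also varied less between mice, with coefficients of variation on panel 2 of 6.52% to 12.7% against 14.5% to 32.2% for Tgfb2. For Tgfb2 the log2 difference between the panels was 1.91 ± 0.16 in control and 1.91 ± 0.15 in BA tumours (SD, n = 9). It was 2.05 ± 0.15 in RT and 2.22 ± 0.16 in BA+RT tumours. The panels gave -0.79 and -0.48 for BA+RT against control. For Tgfb1 the difference was 1.97, 2.04, 2.06 and 2.15 in control, BA, RT and BA+RT tumours. The panels gave -0.46 and -0.27 for Tgfb1 in BA+RT against control. Tgfb3 had differences of 1.32, 1.42, 1.37 and 1.35 in the same order. The cause of these differences was not tested.

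**Figure D3:**
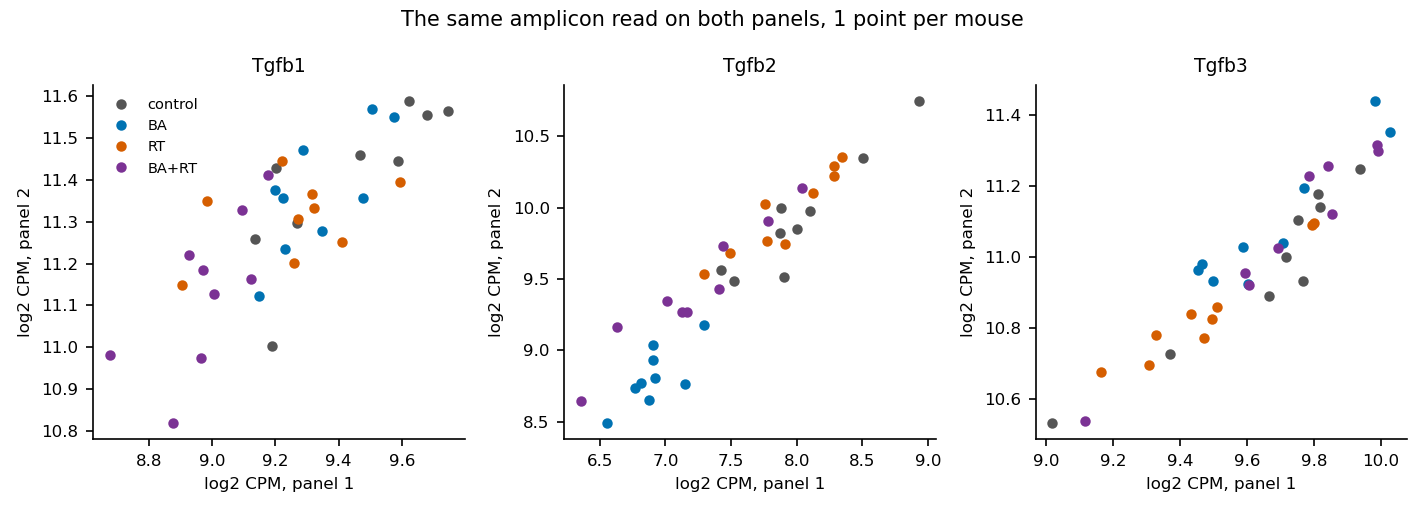
log2 CPM of Tgfb1, Tgfb2 and Tgfb3 on panel 1 (x axis) and panel 2 (y axis), 1 point per mouse, coloured by group. Within-group r was 0.931 for Tgfb2, 0.954 for Tgfb3 and 0.663 for Tgfb1, which varied less between mice than Tgfb2.

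Scaling changed the sign of several small differences. TMM sets the typical row of a panel to no change, while factors from 9 reference genes on each panel put the median change over all rows, on the log2 scale, at 0.183 for RT against control, 0.137 for BA+RT against control, 0.197 for BA+RT against BA and 0.243 for RT against BA. The split of all calls for RT against control was 221 higher and 235 lower under TMM and 437 higher and 83 lower under the reference genes. For the other 3 comparisons it went from 253 higher and 271 lower to 401 and 170, from 292 and 289 to 493 and 155, and from 306 and 280 to 560 and 123. BA+RT against RT went from 41 and 81 to 20 and 108, and BA against control from 136 and 161 to 105 and 199. Tgfb2 with BA stayed lower (-1.22 and -1.26), Ltbp1 with BA stayed higher (0.40, adjusted p = 0.00241), and Inhba with BA+RT stayed lower (-0.44). The rises of Tgfbr1 and Tgfbr2 with BA were not called under the reference genes (0.10 and 0.07, adjusted p = 0.311 and 0.502), and Ltbp1 with RT became called (0.24, adjusted p = 0.043). Tgfb3 on panel 1 became called in BA+RT against control and against BA (0.24 each, adjusted p = 0.033 and 0.0292), from 0.07 and 0.05 under TMM. Tgfb1 in BA+RT against BA lost its call (adjusted p = 0.0633 and 0.293), as did Inhba (0.106). In RT against BA, Tgfb1 turned higher (0.16 and 0.21, adjusted p = 0.0682 and 0.00428), and Tgfbr1 and Ltbp1 lost their calls (-0.03 and -0.16) while Tgfbr2 gained one (0.29). In BA+RT against BA, Eng (0.23) and both Tgfb2 rows (0.58 and 0.83) were higher, and in BA+RT against RT Tgfb1 was also called on panel 2 (-0.29).

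**Figure D4:**
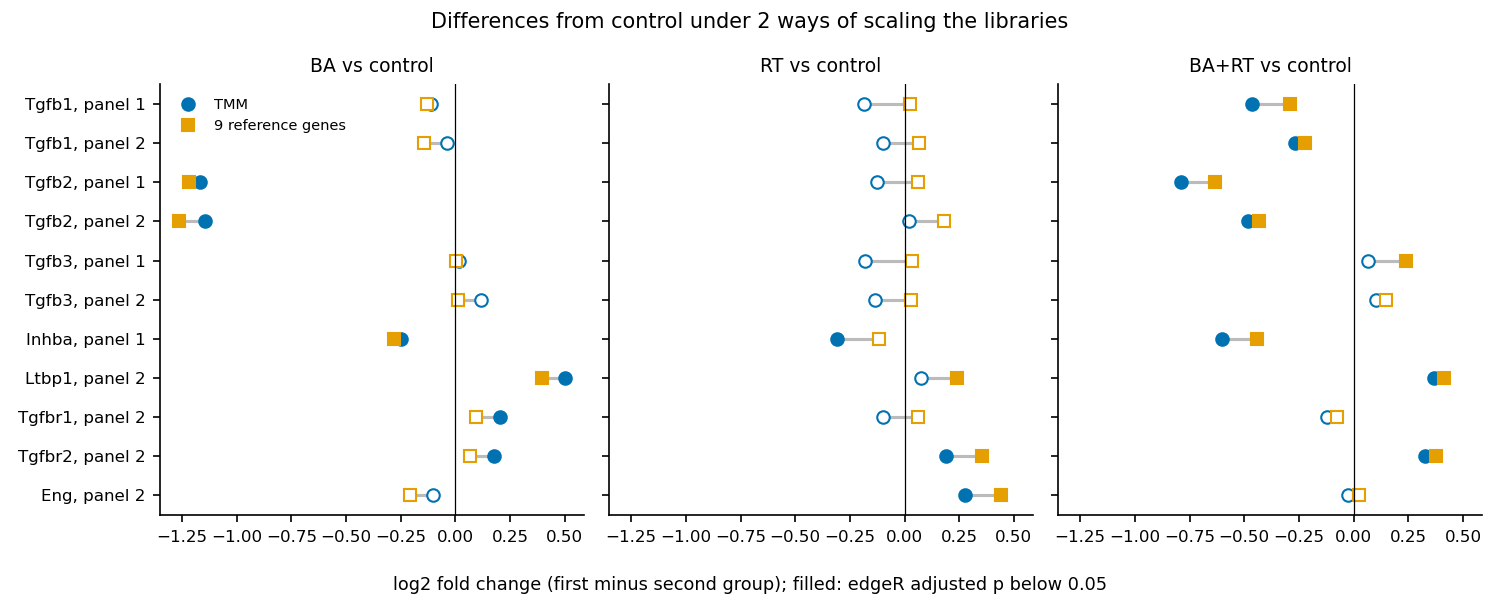
log2 fold change from control of each row with TMM (circles) and with factors from 9 reference genes (squares); filled symbols were called. Shifts are to the right for RT and BA+RT, and the falls of Tgfb2 with BA and of Inhba with BA+RT are called under both.

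Within groups, mice with more Ltbp1 had less Tgfb2 and more Tgfb3. Over 36 mice the deviations from the group means correlated with r = -0.766 (rho -0.681) for Ltbp1 and Tgfb2 on panel 2 and with r = 0.744 (rho 0.685) for Ltbp1 and Tgfb3. Without the 2 mice farthest from the median of Ltbp1, mice 37 and 6, r was -0.669 and 0.683. In BA tumours, where Tgfb2 was low throughout, r for Ltbp1 and Tgfb2 was -0.0865, against -0.775 in control, -0.847 in RT and -0.899 in BA+RT tumours (n = 9 each). Tgfb3 and Tgfb1 correlated with r = 0.707 (rho 0.684). The points of a panel share its libraries and scaling, and these values are descriptions. Control mouse 6 and BA+RT mouse 45 had the same pattern, with Ltbp1 lower than their group means by 0.58 and 0.53 on the log2 scale, and Tgfb2 higher by 0.83 and 0.70. BA+RT mouse 37 had the opposite one, with Ltbp1 higher by 0.50 and Tgfb2 lower by 0.79.

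**Figure D5:**
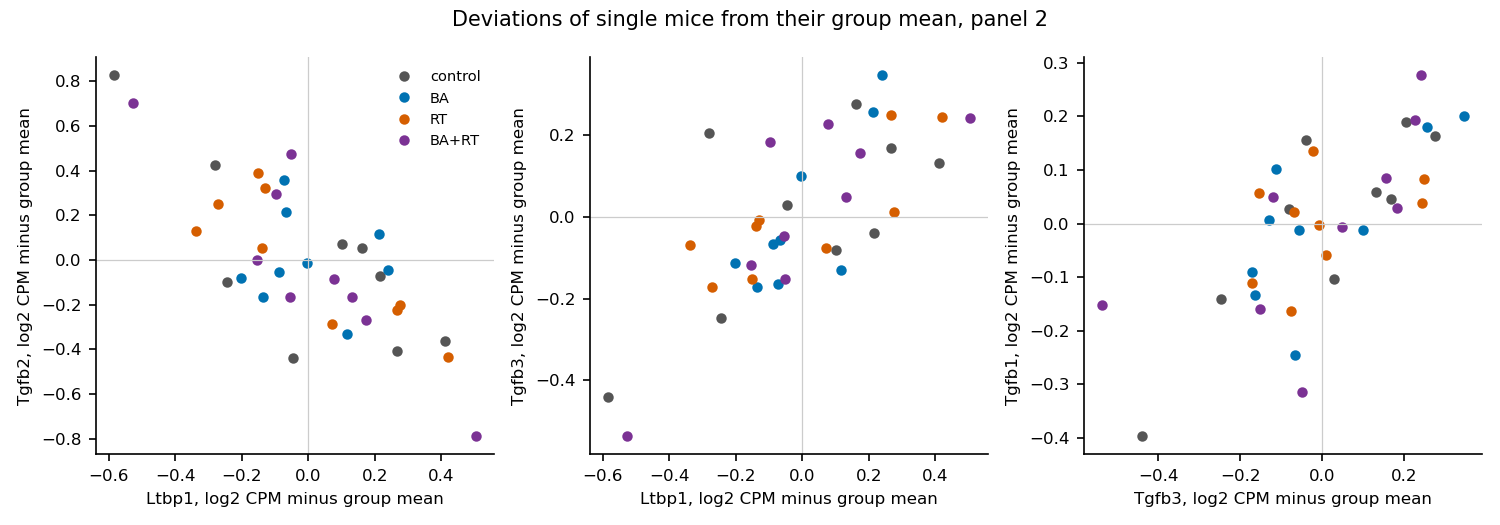
Deviations of single mice from their group mean (log2 CPM, panel 2) for Ltbp1 against Tgfb2, Ltbp1 against Tgfb3 and Tgfb3 against Tgfb1. The first pair falls (r = -0.766) and the others rise (0.744 and 0.707) over 36 mice.

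Among the other 1078 tested rows, those most like each member over 36 mice were ranked by the Pearson correlation of these deviations. For Tgfb2 they were Il6 (0.823), Ctgf (0.813) and Acta2 (0.809) on panel 1, and Pdlim4 (0.825), Timp1 (0.799) and Cd200 (0.799) on panel 2. Spearman rho was lower for each, at 0.747, 0.773 and 0.655 on panel 1 and 0.755, 0.764 and 0.788 on panel 2. Il6 is an inflammatory cytokine, Ctgf a matrix-associated growth regulator and Acta2 smooth muscle actin. For Ltbp1 they were Nfib (0.939), Ddx17 (0.924) and Bcl2 (0.921), a transcription factor, an RNA helicase and an inhibitor of cell death. Tgfb3 was most like Abhd2 (0.881), Nfat5 (0.880) and 4632428N05Rik (0.866) on panel 1, and Bcl2 (0.822), Trp53bp1 (0.802) and Abhd2 (0.801) on panel 2. Tgfb1 was most like Irf3 (0.817), Smad1 (0.794) and Tinagl1 (0.783) on panel 1, and Itgb5 (0.766), Smad7 (0.743) and Ass1 (0.730) on panel 2. The 2 rows of Tgfb1 shared no name, and neither did those of Tgfb2. Inhba was most like Thbs1 on both panels (0.752 and 0.713), a matrix protein that can activate latent TGF-β, and Foxp1 (0.694). For the receptors they were Atrx, Cebpb and Atr for Tgfbr1 (0.645 to 0.664), Dpp4 and Col3a1 for Tgfbr2 (0.655 to 0.708, with Col3a1 on both panels) and Znrf1, Cd276 and Foxp1 for Eng (0.674 to 0.694). Each is the top of 1078 correlations, and library effects shared by all rows were not removed beyond scaling.

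A list of 96 other genes of the pathway had 52 genes tested in 62 rows. It was chosen with earlier results of these data known, so its shares are descriptions and were not tested. With BA 10 rows of the list were higher and 19 lower, a share of 46.8% beside 27.3% of all rows. The latency and activation class had 10 of its 14 rows lower and 1 higher, led by Mmp9 (log2 fold change -2.26, SE 0.17), a gelatinase, and Itgb6 (-1.08, SE 0.27), an integrin chain that activates latent TGF-β. Itgb8, the chain of the other activating integrin, was higher (0.55, SE 0.18), as was Id2 (0.44, SE 0.08), a dominant-negative helix-loop-helix factor. None of its 4 receptor rows was called, and none of its 18 signalling rows was lower.

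With RT 14 pathway rows were higher and 12 lower, 41.9% as in all rows. The highest were Grem1 (1.51, SE 0.19), an antagonist of bone morphogenetic proteins, and Cdkn1a (1.39, SE 0.19), the p21 cell cycle inhibitor. The lowest were the activin receptor genes Acvr2b (-0.44, SE 0.11) and Acvr1b (-0.34, SE 0.14). With BA+RT 9 rows were higher and 16 lower (40.3%), led by Cdkn1a (1.31) and the stress factor Atf3 (0.55) upward and by Mmp9 (-1.82) and Acta2 (-0.61) downward.

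BA+RT against RT had 4 rows higher and 8 lower (19.4% beside 11.2% of all rows). Smad6, an inhibitory SMAD, and the AP-1 gene Jun were higher (0.45 and 0.42), and Mmp9 and Grem1 were lower (-1.61 and -1.35). BA+RT against BA had 15 higher and 14 lower (46.8%), with Cdkn1a (1.45) and Itgb6 (1.19) up and Itgb8 (-0.59) and Acvr2b (-0.37) down. RT against BA had 24 higher and 19 lower (69.4%), with Grem1 (2.18) and Mmp9 (2.05) up and Itgb8 (-0.70) and Acvr2b (-0.68) down. In the interaction 1 row was higher, the urokinase gene Plau (0.53, adjusted p = 0.00457), and 1 lower, Myc (-0.37, adjusted p = 0.00639). Beside these counts, the median log2 fold change of the list was -0.06 after BA, -0.04 after RT and 0.01 after both.

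Fibroblast and pericyte markers also moved with BA, as Tgfb2 did. Of 11 listed markers 7 were tested, with 0 of 36 libraries at 0 for each, and 5 were lower and 0 higher with BA, 2 lower with RT and 5 lower with BA+RT. Their summed level was 58637 to 108508 CPM in control, 42056 to 60954 CPM in BA, 38548 to 89881 CPM in RT and 42509 to 78085 CPM in BA+RT tumours. Cspg4, a pericyte proteoglycan, was the lowest with BA (-1.72), while Dcn (0.38) and Col3a1 (-0.23) were not called. With RT Fap (-0.46) and Pdgfrb (-0.63) fell, where Tgfb2 was not called. Of the fibroblast and pericyte markers 4 are also in the pathway list. The part of these markers in the Tgfb2 values was not tested. Skeletal muscle markers Myod1 and Mb, genes of the tissue that was injected, summed to 256 to 5680.4 CPM and varied within every group, with 1 of 2 higher in BA+RT than in control. Of 8 T cell markers 3 were higher with BA, 3 lower with RT and 3 lower with BA+RT. These rows were near the floor, with 0 to 5 counts in their lowest library. Of 7 macrophage and monocyte markers 3 were higher and 1 lower with BA, 3 higher and 2 lower with RT, and 2 higher and 3 lower with BA+RT. Of 4 neutrophil markers tested 1 was higher with BA, none was called with RT, and 1 was higher and 3 lower with BA+RT. Of 3 platelet markers 1 was lower with BA, 2 were higher and 1 lower with RT, and 1 was higher and 1 lower with BA+RT. The part of these cell types in the members' values was not tested.

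Upstream sequence is shown for Tgfb2, which fell with BA, and for Tgfb1, which was not called with BA. Of the 8 genes 7 had a promoter entry in the RefSeq table (GRCm38.p6), and Tgfb3, likewise not called with BA, had none. The 250 bases before the start are printed for Tgfb2 (chr1:186705990-186706239, minus strand) and Tgfb1 (chr7:25686752-25687001, plus strand), with matches on either strand in capitals.
Tgfb2 promoter: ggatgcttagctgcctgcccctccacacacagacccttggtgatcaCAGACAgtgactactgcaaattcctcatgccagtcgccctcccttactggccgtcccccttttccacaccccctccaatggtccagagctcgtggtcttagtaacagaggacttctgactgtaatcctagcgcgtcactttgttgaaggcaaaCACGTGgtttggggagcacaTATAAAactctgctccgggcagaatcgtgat
Tgfb1 promoter: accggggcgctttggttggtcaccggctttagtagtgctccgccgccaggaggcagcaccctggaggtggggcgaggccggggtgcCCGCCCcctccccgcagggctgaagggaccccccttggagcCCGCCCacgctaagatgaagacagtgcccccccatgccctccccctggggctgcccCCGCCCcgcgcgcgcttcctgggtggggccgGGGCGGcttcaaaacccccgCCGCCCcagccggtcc
The search on both strands covered the SMAD-binding CAGA box, spelled CAGACA, and the longer SMAD palindrome, spelled GTCTAGAC. It covered the site of the AP-1 family of dimeric factors, spelled TGANTCA, and the binding site of the Sp1 family, called the GC box and spelled GGGCGG. For the core promoter the sequence looked for was TATAAA, known as the TATA box. The cyclic AMP response element was spelled TGACGTCA. The sequence bound by many basic helix-loop-helix factors, the E-box, was spelled CACGTG. Tgfb2 held 1 CAGA box, 1 E-box and 1 TATA box, and Tgfb1 held 5 GC boxes. Of 32851 promoters, 17.1% held a CAGA box, 6.02% an E-box, 12.4% a TATA box and 32.7% a GC box. The palindrome (0.167% of all promoters), the AP-1 site (6.75%) and the response element (1.55%) were in neither sequence, and no 2 matches overlapped. The Tgfb1 sequence was 75.2% G and C and that of Tgfb2 53.6%, against a median of 52.4%. CAGA boxes were also counted in the members whose sequence is not printed. Among genes higher with BA, 1 entry of Ltbp1 held 2 and 1 entry of Tgfbr1 held 1. The other entries of these genes and that of Tgfbr2, also higher with BA, held 0. Inhba, lower with BA, and Eng, not called, held 0 as well. A match of letters is not a bound site, and no factor binding was measured here.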

How the data were processed

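Per the labels, tumour RNA of 36 mice was read with 2 targeted amplicon panels (72 libraries). The deposited table holds raw whole-number counts for each amplicon. The sources used here do not state the aligner or whether reads or barcodes were counted. A deposited rlog table is on the log2 scale, and the submitters' processing notes name DESeq2, with no version. Positions headed GRCh38 were matched to GENCODE M21 of GRCm38, where 1277 of 1278 amplicons fell within their named gene.

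Panels were fitted separately in edgeR 4.0.16 (R 4.3.3) with 4 groups, TMM, filterByExpr by group and two-sided robust quasi-likelihood F tests. Benjamini-Hochberg adjustment covered the 1089 tested rows of both panels, with calls below 0.05. SE is |log2 fold change| over the root of F, and 95% intervals use the normal quantile. Mouse is the unit of replication. Scripts were tested on simulated data. The 5 genomic DNA control rows per panel (7 and 12 counts) were left out. Within groups no 2 libraries matched within sampling noise (chi-square per degree of freedom at least 6.32). Correlations use log2 CPM (prior count 2) as deviations from group means. Named genes were every member row, the 3 rows most like each, and the 2 called pathway rows that changed most in each direction per comparison. Alternatives were DESeq2 1.42.0 (size factors and Wald test), limma 3.58.1 on rlog values, reference gene and total count scaling, no filter, pairwise fits, thinning, adjustment over 1 row per gene, and mice left out. The genes, lists and mice left out together were chosen with earlier results of these data known. Promoters came from RefSeq.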

Additional observations from a re-analysis of the deposited data

Results flagged for a closer look

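Tgfb3 in BA+RT mouse 45 was flagged by Dixon's outlier ratio as lying below the other 8 tumours of its group on both panels. On panel 1 it had 554 CPM, with the next lowest mouse at 772 CPM, and on panel 2 it had 1482 CPM, with the next lowest at 1936 CPM. Of 44 checks of a row in a group these were the only ones past the limit, and chance alone gives about 1 in 20. Both values come from the same RNA. The mouse also had the highest Tgfb2 and the lowest Ltbp1 of its group. Leaving it out gave Tgfb3 a call for BA+RT against RT on both panels.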

How the results depend on the processing

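Of 749 member results under alternatives other than leaving out 1 mouse, 699 kept their direction and side of the threshold, and of 2772 with 1 mouse left out 2684 did. Of the 33 calls 17 held under every alternative and without every single mouse. With factors from the reference genes, log2 fold changes turned to 0.023 (Tgfb1 panel 1), 0.068 (Tgfb1 panel 2), 0.063 (Tgfb2 panel 1), 0.034 (Tgfb3 panel 1), 0.028 (Tgfb3 panel 2) and 0.060 (Tgfbr1) for RT against control, and 0.024 (Eng) for BA+RT against control. They turned to 0.14 (Tgfb3 panel 2) and 0.015 (Ltbp1) for BA+RT against BA, and to 0.16 and 0.21 (Tgfb1), 0.033 and 0.015 (Tgfb3) and 0.16 (Inhba) for RT against BA. Only Tgfb1 on panel 2 was called after turning, and only Tgfb3 on panel 2 (RT against BA) had been called before. With total counts, Eng turned to 0.013 (BA+RT against control) and Tgfb3 on panel 2 to 0.029 (BA+RT against BA), and with thinning to 0.015 and 0.0019. With limma on the rlog values the Inhba interaction turned to 0.0072. Without control mouse 8, RT mouse 24 and BA+RT mouse 40, Tgfb2 on panel 2 turned to -0.090 (RT against control) and Tgfbr2 to -0.0085 (RT against BA). BA+RT against RT then called 1 member row, and the interaction called 1 member row and 141 rows of all. Pairwise fits and an adjustment over 1 row per gene each called 3 member rows for BA+RT against RT; the latter set leaves out the smaller row of each ligand read on both panels. The cause of the other changes was not tested.

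With 1 mouse left out, member rows called ranged from 3 to 5 (RT against control), 2 to 6 (BA+RT against RT) and 0 to 1 (interaction). Values that changed sign ranged from -0.046 to 0.054 for Tgfb3 on panel 1 (BA against control), from -0.20 to 0.025 and from -0.031 to 0.15 for Tgfb2 on panels 1 and 2 (RT against control), and from -0.071 to 0.026 for Eng (BA+RT against control). Others ranged from -0.062 to 0.017 for Tgfbr1 (BA+RT against RT), from -0.0017 to 0.11 and from -0.047 to 0.043 for Tgfb3 on panels 1 and 2 (BA+RT against BA), from -0.0065 to 0.047 for Tgfbr2 (RT against BA) and from -0.082 to 0.036 for the Inhba interaction. None of these had been called. No mouse numbers were shared between groups, so no paired analysis was possible. Depth limits Tgfb2 most, with as few as 108 counts in a BA library on panel 1.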
